A study of Mus musculus with 8 samples.

Results

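Transcript levels of fibronectin and 7 matricellular genes (*Fn1*, *Tnc*, *Thbs1*, *Thbs2*, *Sparc*, *Spp1*, *Tgfbi* and *Postn*) were examined by RNA-seq in mouse pancreatic ductal adenocarcinoma (PDAC) cells. The 8 genes were taken by symbol from a table of 53465 genes, and 6 of them were among the 14301 genes that had enough counts to be tested. The cells came from a *Ptf1a*-Cre model of pancreatic cancer in which a doxycycline (Dox)-inducible short hairpin RNA lowers *Smad4*. Both lines, B73 and B87, were derived from primary pancreatic tumors of that model, so every group shares the Cre driver and an inducible hairpin. In Smad4-off cells Dox was present throughout, and in Smad4-on cells it was withdrawn 5 days before plating. Treatment began 24 h after plating. Either state was treated for 24 h with 100 pM TGFβ1 or with 2.5 µM SB505124, which blocks the kinase of the type I TGFβ receptor. This gave 4 groups with 1 library from each line, so every group mean has n = 2 and the spread between libraries of a group is the spread between the lines. The lines were grown on collagen-coated plastic and passaged to remove non-tumor cells, and which *Smad4* hairpin each line carries is not given in the sources used here.

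Fibronectin is an adhesive glycoprotein that cells assemble into fibrils through integrins. Matricellular proteins are secreted into the same matrix but act mainly as signals, binding integrins, CD44, CD36 or CD47 and adjusting adhesion, protease activity and growth factor supply. TGFβ is the classic inducer of matrix genes. Its receptors phosphorylate SMAD2 and SMAD3, which enter the nucleus together with SMAD4, while other branches of the receptor act without SMAD4. In pancreatic cancer these proteins are prominent in the tumor stroma and several are also made by the carcinoma cells themselves.

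Library totals ran from 18389235 to 23440550 counts, at which 3 counts, the floor used for detection, correspond to 0.125 to 0.162 CPM (read counts relative to the TMM-adjusted size of each library). *Smad4* stood at 33.7 to 35.5 CPM in the 4 Smad4-off libraries and at 97.4 to 117 CPM in the 4 Smad4-on libraries, so Smad4 off means a lowered and not an absent transcript. Smad4 state and Dox changed together and no control-hairpin library is among the 8, so effects of Smad4 and of Dox cannot be told apart. Nor is there a library without either TGFβ1 or SB505124. Every TGFβ1 change below is therefore TGFβ1 against SB505124, and effects of adding TGFβ1 and of blocking its receptor cannot be told apart. Among 8 epithelial markers *Krt18* lay between 592 and 2430 CPM and *Krt8* between 236 and 2410. *Krt7* lay between 474 and 649 CPM in B73 but between 12.6 and 28.7 in B87, *Cdh1* between 11.5 and 469 CPM over both lines, and *Epcam* did not exceed 2.11 CPM. Among 7 macrophage and leukocyte markers, 5 or 6 per group were at or below the floor, and their sum stayed between 1.33 and 6.44 CPM. Of 8 fibroblast markers, 3 per group were at or below the floor (*Dcn*, *Lum* and *Thy1*), but *Col1a1* reached 627 CPM in B87. Endothelial markers summed to 0.756 to 26.1 CPM and acinar markers to 0.408 to 1.37 CPM. Bulk counts cannot tell fewer cells of a type apart from less RNA per cell.

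The genes differed widely in level. Per kilobase of exon, *Spp1* (osteopontin, a secreted phosphoprotein that binds αv integrins and CD44) and *Fn1* held the largest shares in most libraries. *Spp1* made up 54.5% to 78.9% of the summed per-length level of the 8 genes in the 4 Smad4-off libraries. In Smad4-on cells its share was 36.8% and 56.8% under SB505124, and 9.0% and 10.6% under TGFβ1. In those 2 libraries the larger shares were those of *Fn1*, at 54.3% in B73 and 35.4% in B87, and *Thbs1*, at 31.7% and 41.3%. The summed per-length level was 936 and 530 CPM per kilobase in Smad4-off cells under SB505124 (B73 and B87, in that order), and 2360 and 1710 under TGFβ1. With Smad4 on it was 384 and 506 under SB505124, and 1350 and 1800 under TGFβ1. Under TGFβ1 the sum was therefore lower with Smad4 on in B73 and slightly higher in B87, while the share of *Spp1* was lower and those of *Fn1* and *Thbs1* higher in both lines.

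**Figure D1:**
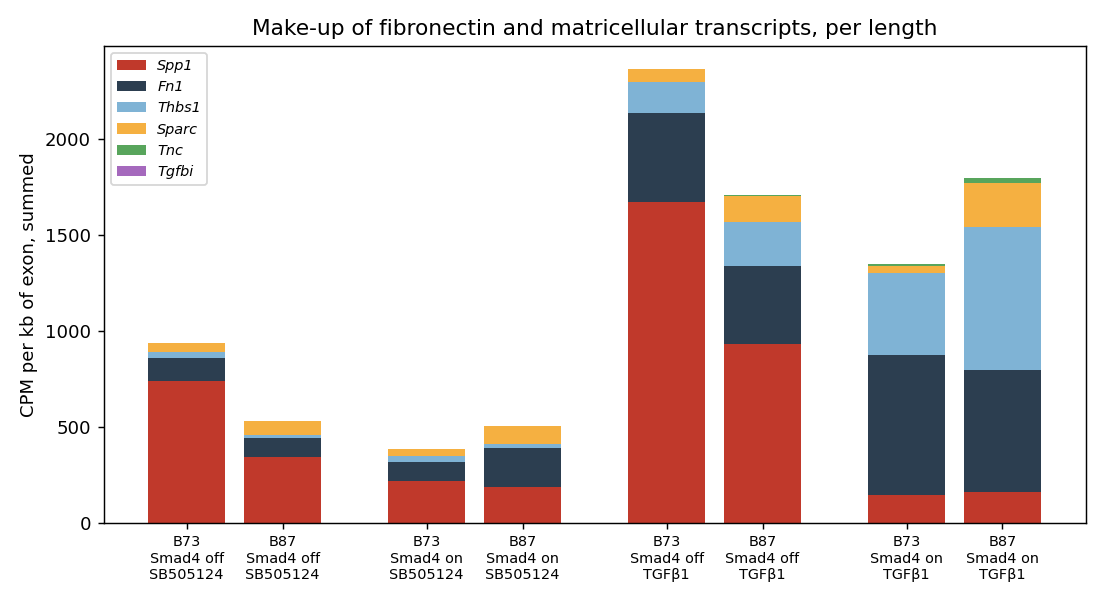
Summed level of fibronectin and matricellular transcripts in each library, in CPM per kilobase of exon, stacked by gene. Each bar is 1 library, and *Postn* and *Thbs2* are left out because no library had more than 3 counts of either. *Spp1* is the largest block in all 4 Smad4-off libraries and is 9.0% and 10.6% of the sum in Smad4-on cells under TGFβ1.

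*Tnc* and *Spp1* were the only genes of the 8 called between Smad4 on and off under TGFβ1, *Tnc* higher and *Spp1* lower, and their proximal promoters are shown for that reason. *Tnc* (tenascin-C, a large hexameric glycoprotein of remodelling tissue) lies at chr4:63959785-64047015 on the minus strand of GRCm38. *Spp1* lies at chr5:104435118-104441050 on the plus strand. The windows are the 250 bases before the first RefSeq start of each gene in GRCm38.p6, at chr4:64047016-64047265 for *Tnc* and chr5:104434861-104435110 for *Spp1*, written 5′ to 3′ on the strand of the gene. Capitals mark matches on either strand to the SMAD box CAGAC, which appears as GTCTG when it lies on the other strand, to the AP-1 motif TGANTCA or to the KLF-type GC box GGGCGG.
Tnc: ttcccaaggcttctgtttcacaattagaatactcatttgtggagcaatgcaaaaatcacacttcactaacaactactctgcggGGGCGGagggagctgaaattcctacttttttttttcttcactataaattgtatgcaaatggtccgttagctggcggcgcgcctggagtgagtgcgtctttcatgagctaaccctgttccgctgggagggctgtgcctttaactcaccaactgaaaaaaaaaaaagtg
Spp1: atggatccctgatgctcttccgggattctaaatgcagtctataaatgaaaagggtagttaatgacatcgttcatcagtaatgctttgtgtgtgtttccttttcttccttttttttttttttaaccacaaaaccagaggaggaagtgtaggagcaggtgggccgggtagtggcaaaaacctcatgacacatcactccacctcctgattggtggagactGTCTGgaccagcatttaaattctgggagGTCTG
The *Tnc* window held 1 GC box, starting 167 bases before the start, and no SMAD box or AP-1 match, while the window of the second listed *Tnc* start held a SMAD box 70 bases before that start. The *Spp1* window held 2 SMAD boxes, which begin 33 and 5 bases before the start, and neither of the other motifs. Across the 9 starts listed for 6 of the 8 genes (*Tnc*, *Thbs2*, *Sparc*, *Spp1*, *Tgfbi* and *Postn*), 7 windows held a SMAD box, against 42.2% of all 32851 promoter windows of that length. The GC box was found in 3 of the 9 windows, 2 of which are overlapping *Tnc* windows that share the same match, against 32.7% of all windows. AP-1 was found in 0 of the 9, against 6.75%. These are matches of letters in short windows, and no binding was measured here.

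The first question was which of the genes respond to TGFβ1, and whether they do so when Smad4 is lowered. Against SB505124, *Fn1*, *Thbs1* and *Tnc* were higher under TGFβ1 in both Smad4 states. *Spp1* was higher in Smad4-off cells, and *Tgfbi* was lower in Smad4-on cells. In Smad4-on cells 4 of the 6 tested genes were called, 3 higher and 1 lower, where 13.9% of all tested genes were called, 5.62% higher and 8.31% lower. In Smad4-off cells 4 of 6 were called, all higher, where 5.93% of all genes were called, 3.11% higher and 2.82% lower. A gene was called at a Benjamini-Hochberg adjusted p under 0.05 and a change over 2-fold. The median log2 fold change of the 6 genes was 1.52 with Smad4 on and 1.64 with Smad4 off, against -0.019 and -0.017 for all genes. Each of the 8 libraries enters 1 TGFβ1 comparison and 1 Smad4 comparison, so the 4 comparisons are not independent of each other.

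*Fn1* (chr1:71585520-71653200, minus strand) was among the most abundant transcripts of these cells. Under SB505124 it stood at 1420 CPM in B73 and 1140 in B87 with Smad4 off, and at 1170 and 2390 with Smad4 on. Under TGFβ1 it stood at 5470 and 4730 CPM with Smad4 off, and at 8560 and 7440 with Smad4 on. All 4 TGFβ1 libraries lay above all 4 SB505124 libraries, and *Fn1* had the most counts of any gene in TGFβ1-treated Smad4-on B73 cells and ranked second in B87. The change was 2.18 ± 0.323 on the log2 scale (± SE, adjusted p = 0.00288) in Smad4-on cells and 1.99 ± 0.318 (adjusted p = 0.0096) in Smad4-off cells. The Smad4-off call was lost without the B73 Smad4-off TGFβ1 library (1.79, adjusted p = 0.0613), without the B87 Smad4-off SB505124 library (1.77, adjusted p = 0.064) and without the line in the model (adjusted p = 0.0516).

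*Thbs1* (chr2:118111876-118127133, plus strand) encodes thrombospondin-1, which binds CD36 and CD47 and can release TGFβ from its latent complex. Its level under SB505124 was 170 and 91.9 CPM with Smad4 off (B73, then B87) and 190 and 136 with Smad4 on. Under TGFβ1 it was 975 and 1390 CPM with Smad4 off and 2590 and 4520 with Smad4 on. The 2 treatments did not overlap, and within TGFβ1 both Smad4-on libraries were above both Smad4-off libraries. The TGFβ1 change was 4.45 ± 0.435 on the log2 scale (adjusted p = 0.000574) in Smad4-on cells, or 13.7-fold in B73 and 33.3-fold in B87. With Smad4 off it was 3.18 ± 0.412 (adjusted p = 0.00471), or 5.74-fold and 15.1-fold.

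*Tnc* was low under SB505124 and rose with TGFβ1. Its levels in B73 were 1.8 CPM (36 counts) and 2.7 under SB505124, Smad4 off and on, and 9.81 and 75.3 under TGFβ1. In B87 they were 6.24 and 10.1 CPM under SB505124, and 61.5 and 216 under TGFβ1. In each line the order was the same, lowest with SB505124 and Smad4 off and highest with TGFβ1 and Smad4 on, but under TGFβ1 B87 with Smad4 off came close to B73 with Smad4 on. The TGFβ1 change was 4.63 ± 0.281 on the log2 scale (adjusted p = 0.000114) in Smad4-on cells and 2.97 ± 0.287 (adjusted p = 0.00176) in Smad4-off cells. Without the line in the model edgeR called *Tnc* in neither state (adjusted p = 0.061 and 0.256).

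*Spp1* differed from these 3 genes in that its response to TGFβ1 was called in Smad4-off cells alone. With Smad4 off it stood at 1220 CPM in B73 and 568 in B87 under SB505124, and at 2750 and 1540 under TGFβ1. With Smad4 on it stood at 360 and 307 CPM under SB505124, and at 235 and 267 under TGFβ1. TGFβ1 libraries were thus above SB505124 libraries in both lines with Smad4 off and below them in both lines with Smad4 on. The change was 1.28 ± 0.283 on the log2 scale (adjusted p = 0.0289) in Smad4-off cells, and -0.37 ± 0.281 (adjusted p = 0.348) in Smad4-on cells. The difference between these changes, tested as an interaction, was -1.66 ± 0.398 (adjusted p = 0.22). The Smad4-off call was lost on leaving out the B73 TGFβ1 library (1.03, adjusted p = 0.183), the B87 TGFβ1 library (1.51, adjusted p = 0.0757), the B87 SB505124 library (0.94, adjusted p = 0.136) or the line term (1.26, adjusted p = 0.2). *Gm42793*, whose exons share 309 bases with *Spp1* on the same strand, had 7 to 126 counts per library against 4612 to 64171 for *Spp1*.

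*Sparc* (chr11:55394500-55423183, minus strand), which encodes a collagen-binding glycoprotein also called osteonectin, was not called for TGFβ1 in either state. It stood at 177, 129, 250 and 135 CPM in B73, in the order Smad4 off and on under SB505124, then Smad4 off and on under TGFβ1. In B87 it stood at 270, 338, 516 and 869 CPM in that order. Every B87 library was above every B73 library, and with Smad4 on TGFβ1 went with a 2.57-fold higher level in B87 but a 1.04-fold difference in B73. The fitted change was 0.85 ± 0.424 on the log2 scale (adjusted p = 0.169) in Smad4-on cells and 0.68 ± 0.42 (adjusted p = 0.343) in Smad4-off cells. Leaving out the B73 Smad4-on TGFβ1 library gave 1.53 (adjusted p = 0.00515) in Smad4-on cells, and leaving out its B87 counterpart gave -0.14 (adjusted p = 0.705).

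*Tgfbi* (chr13:56609523-56639562, plus strand) encodes an integrin-binding protein that was named for its induction by TGFβ. Here it was low, and near the detection floor in 3 of the 4 TGFβ1 libraries. B73 had 88 and 27 counts under SB505124, Smad4 off and on, and 40 and 1 under TGFβ1. B87 had 33 and 183 counts under SB505124, and 7 and 7 under TGFβ1. In every line and Smad4 state the TGFβ1 library was the lower of the pair, and the fitted change was -4.47 ± 1.32 on the log2 scale (adjusted p = 0.0386) in Smad4-on cells and -1.45 ± 1.03 (adjusted p = 0.404) in Smad4-off cells. A fit to the 4 Smad4-off libraries alone called it there as well (-1.55, adjusted p = 0.0162). With so few counts the fitted size depends on the prior count of the fit. The Smad4-on call was lost without either Smad4-on TGFβ1 library (adjusted p = 0.16 without B73 and 0.096 without B87), without the B87 Smad4-on SB505124 library (-2.17, adjusted p = 0.221) and without the line in the model (adjusted p = 0.0831).

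*Postn* (periostin, a fibroblast product related to *Tgfbi*; chr3:54361109-54391037, plus strand) and *Thbs2* (thrombospondin-2; chr17:14665500-14694262, minus strand) were not detected above the floor. *Postn* had at most 2 counts and *Thbs2* at most 3 counts in any library, so neither entered a test. Differences in these 2 genes were not detectable at this depth.

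**Figure D2:**
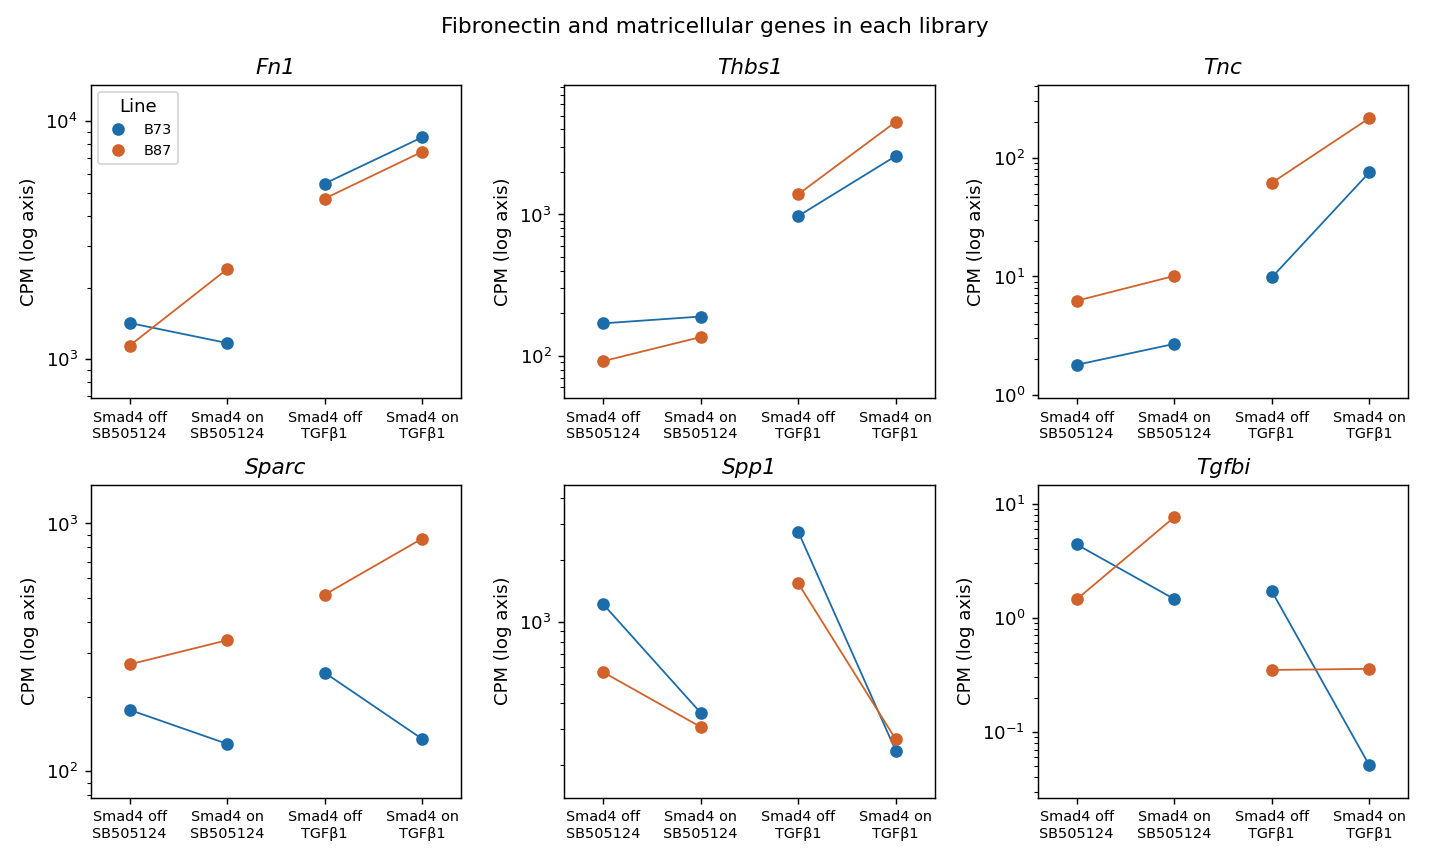
Level of the 6 tested genes in each library, in CPM on a log axis. Points are single libraries, coloured by line, and lines join Smad4 off to Smad4 on within a line and treatment. In each line *Fn1*, *Thbs1* and *Tnc* are higher under TGFβ1 in the same Smad4 state, whereas *Spp1* is lower with Smad4 on in both lines and both treatments.

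The second comparison was between Smad4 on and off. With TGFβ1 present, Smad4 on and off differed in 2 of the 6 genes, *Tnc* higher and *Spp1* lower, where 3.12% of all tested genes were called, 1.31% higher and 1.8% lower. The median log2 fold change of the 6 was 0.35, against -0.007 for all genes. *Tnc* was 2.32 ± 0.241 higher on the log2 scale with Smad4 on (adjusted p = 0.00387), 7.67-fold in B73 and 3.51-fold in B87. *Spp1* was lower, at -3.01 ± 0.302 (adjusted p = 0.00369), a drop of 11.7-fold in B73 and 5.76-fold in B87. Leaving out any 1 of the 8 libraries gave log2 changes of 1.90 to 2.85 for *Tnc* and -3.49 to -2.58 for *Spp1*. Without the line in the model neither was called in edgeR (adjusted p = 0.497 for *Tnc* and 0.0739 for *Spp1*).

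*Thbs1* missed the threshold in this comparison. Its change was 1.59 ± 0.383 on the log2 scale (adjusted p = 0.0557), with 2.66-fold and 3.26-fold higher levels in B73 and B87. DESeq2 called it (adjusted p = 0.0336 with the line and 0.000529 without). So did edgeR with no filter on low counts (adjusted p = 6.35e-06) or with the 4 TGFβ1 libraries alone (adjusted p = 0.00383). In edgeR *Thbs1* was not called without the line (1.59, adjusted p = 0.204). Nor was it called with at least 10 counts in every library (1.58, adjusted p = 0.061). With 1 library left out at a time its log2 change ran from 0.97 to 2.05. The lowest value, under 2-fold, was without the B87 Smad4-on TGFβ1 library, and the highest without its B73 counterpart. *Fn1* was 1.57-fold higher with Smad4 on in each line, 0.65 ± 0.308 on the log2 scale (adjusted p = 0.259), which is under the 2-fold limit. *Sparc* was lower with Smad4 on in B73 and higher in B87, with log2 differences of -0.89 and 0.75 and a fitted change of 0.06 ± 0.424 (adjusted p = 0.95). *Tgfbi* differed between Smad4 states in B73, at 40 counts off and 1 count on, and not in B87, at 7 counts each (fitted change -2.32 ± 1.49, adjusted p = 0.396).

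With the receptor inhibited by SB505124, 0 of the 6 genes were called between Smad4 on and off, where 1.09% of all genes were called. At an unadjusted p under 0.05, 1 of the 6 genes passed, *Spp1*, as did 1809 of all 14301 tested genes. *Spp1* was lower with Smad4 on here as well, at -1.35 ± 0.285 on the log2 scale (adjusted p = 0.0882), 3.38-fold in B73 and 1.85-fold in B87. DESeq2 called it (adjusted p = 0.0259 with the line and 0.0136 without), as did edgeR with no filter on low counts (adjusted p = 4.96e-06) or without the B73 or the B87 Smad4-on TGFβ1 library (adjusted p = 0.036 and 0.034). In edgeR *Spp1* was not called without the line (adjusted p = 0.698) or with the SB505124 libraries alone (adjusted p = 0.11). Leaving out 1 library at a time gave -1.72 to -0.92. The smallest change, under 2-fold, was without the B73 Smad4-off SB505124 library. *Tnc* was at 0.66 ± 0.312 (adjusted p = 0.449) and *Thbs1* at 0.32 ± 0.381 (adjusted p = 0.796). *Fn1* went opposite ways in the 2 lines, 2.09-fold higher with Smad4 on in B87 and 1.21-fold lower in B73. Without the B73 Smad4-on SB505124 library *Fn1* was called at 1.02 (adjusted p = 0.0389), and without its B87 counterpart it was -0.24 (adjusted p = 0.495).

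**Figure D3:**
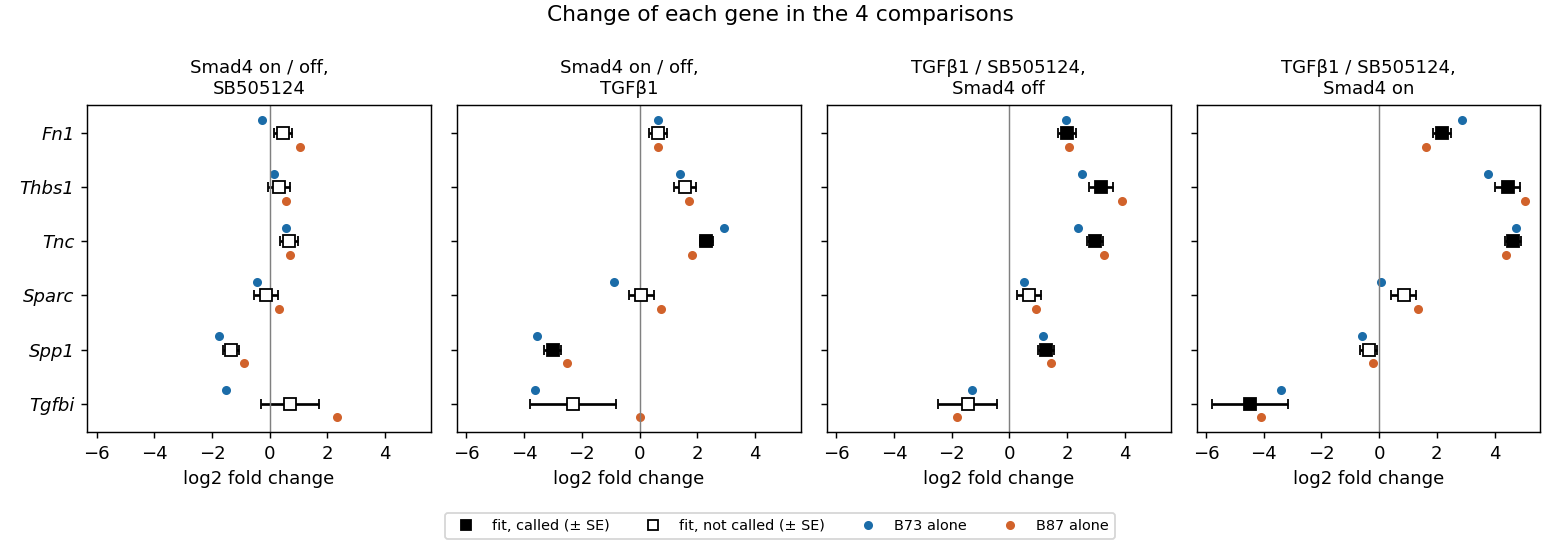
Log2 fold changes of the 6 tested genes in the 4 comparisons. Squares are the fitted values with their standard errors, filled where called, and circles are the 2 lines on their own, taken from log2 CPM (prior count 2). *Tnc* and *Spp1* are the called genes between Smad4 states under TGFβ1, at 2.32 and -3.01, and no gene is called between Smad4 states under SB505124.

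Whether the Smad4 difference was larger under TGFβ1 than under SB505124 was tested as an interaction. In edgeR 0 of the 6 genes passed, where 0.189% of all genes did, 0.0559% higher and 0.133% lower. At an unadjusted p under 0.05, 3 of the 6 genes passed (*Tnc*, *Spp1* and *Thbs1*), as did 1493 of all 14301 tested genes. The interaction was 1.66 ± 0.392 on the log2 scale for *Tnc* (adjusted p = 0.218), -1.66 for *Spp1*, as given above, and 1.27 ± 0.535 for *Thbs1* (adjusted p = 0.473). Each had the same sign in both lines, at 2.36 and 1.12 for *Tnc*, -1.79 and -1.64 for *Spp1*, and 1.25 and 1.14 for *Thbs1* in B73 and B87. The p that singled out these 3 genes comes from the same 2 lines, so the shared sign is no separate support. DESeq2 with the line called *Tnc* (1.69, adjusted p = 0.00307), and edgeR with no filter on low counts called all 3 (adjusted p = 0.00069, 8.53e-05 and 0.0233). *Fn1*, at 0.19 ± 0.436, had opposite signs in the lines (0.93 and -0.41), as did *Sparc* (-0.44 and 0.43). *Tgfbi*, at -3.02 ± 1.75 (adjusted p = 0.616), was negative in both (-2.10 and -2.29).

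The lines differed in level for 2 of the 6 genes, both higher in B87, where 8.37% of all genes were called between the lines, 3.87% higher and 4.5% lower in B87. *Tnc* was 1.98 ± 0.193 higher on the log2 scale in B87 (adjusted p = 0.000841) and *Sparc* 1.42 ± 0.309 (adjusted p = 0.0208). The *Sparc* call was lost without either Smad4-on SB505124 library (1.44 in each case, adjusted p = 0.0698 without B73 and 0.0704 without B87). The average difference of *Thbs1* between the lines was 0.00 ± 0.272. The fibroblast marker list moved with the lines in the same direction as *Tnc* and *Sparc*, with 3 of its 5 tested genes called higher and 1 called lower in B87. *Col1a1* stood at 0.349 to 5.1 CPM in B73 and at 25.9 to 627 in B87. It was also called higher with Smad4 on under TGFβ1 (1.78, adjusted p = 0.00656) and SB505124 (2.08, adjusted p = 0.0136), and with TGFβ1 in both Smad4 states. In this model the Dox-controlled hairpin cassette sits at the *Col1a1* locus. Effects of switching the cassette and of Smad4 on *Col1a1* cannot be told apart. *Col1a1* was the only one of the 5 tested fibroblast markers called for Smad4. The list median under TGFβ1 was -0.27, with *Col3a1* at -2.11 (adjusted p = 0.19), *Pdgfrb* at -0.91 (adjusted p = 0.524) and *Pdgfra* at -0.27 (adjusted p = 0.654). The sum of the 8 fibroblast markers ranged from 15.8 to 51.6 CPM in Smad4-off and 5.84 to 161 in Smad4-on cells under SB505124, and from 40.5 to 226 and 10.6 to 668 under TGFβ1. Of 8 epithelial markers 5 were called lower in B87. The part of these marker differences in the levels of *Tnc*, *Thbs1* and *Sparc* was not tested. *Spp1* is also made by macrophages, and of the 7 macrophage and leukocyte markers *Adgre1* and *C1qa* had 0 counts in every library, *Ptprc*, *Csf1r*, *Lyz2* and *Itgam* had at most 5, and *Cd68* had 23 to 126. *Cd68*, the one marker tested, was at -0.93 between Smad4 on and off under TGFβ1 (adjusted p = 0.18) and -0.54 under SB505124 (adjusted p = 0.563), the direction of *Spp1*, and its part in the *Spp1* difference was not tested.

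Between the lines, the Smad4 effect averaged over both treatments differed for 1 of the 6 genes, where 0.392% of all genes were called, 0.196% in each direction. The gene was *Tgfbi*, with a log2 difference of 4.22 ± 0.462 between B87 and B73 (adjusted p = 0.0329). Taken from log2 CPM with the prior count rather than from the fit, its mean Smad4 effect was -2.58 in B73 and 1.17 in B87. That call rests on libraries with 1 to 183 counts, and it was lost without the B73 (4.50, adjusted p = 0.21) or the B87 (4.50, adjusted p = 0.241) Smad4-on SB505124 library. For *Sparc* the difference was 1.21 ± 0.388 (adjusted p = 0.34), with mean Smad4 effects of -0.67 in B73 and 0.54 in B87, and for *Spp1* it was 0.95 ± 0.176 (adjusted p = 0.106). *Sparc* passed without either Smad4-on SB505124 library (1.88 in each case, adjusted p = 0.0198 without B73 and 0.0218 without B87) and with no filter on low counts (1.23, adjusted p = 1.36e-14). *Spp1* passed without those libraries (1.17, adjusted p = 0.0479 and 0.0498) or without the B87 Smad4-off TGFβ1 library (1.07, adjusted p = 0.0334). For the TGFβ1 effect averaged over both Smad4 states, 0 of the 6 genes and 0% of all genes differed between the lines in edgeR, while 1198 of all 14301 tested genes had an unadjusted p under 0.05. The lowest unadjusted p among the 6 (0.000341) was that of *Thbs1*, with a difference of 1.34 ± 0.178 (adjusted p = 0.34). It passed with no filter on low counts (1.33, adjusted p = 3.99e-07). For *Sparc* and *Thbs1* the differences with and without the filter were nearly the same. The adjusted p values of the unfiltered fit were not read as added support.

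Receptors of these proteins were read as a list of 15 genes, 12 of them tested. With TGFβ1, 7 of the 12 were called higher in Smad4-on cells and 2 in Smad4-off cells, where 5.62% and 3.11% of all genes were called higher, and none was called lower. In Smad4-off cells *Itga5*, *Itgb1* and *Itgav* had log2 changes of 0.97, 0.92 and 0.88, with adjusted p = 0.00538, 0.00133 and 0.00738, just under the 2-fold limit. The list median was 1.05 and 0.90 on the log2 scale, against -0.019 and -0.017 for all genes. Between Smad4 on and off under TGFβ1, 1 of the 12 was called, *Itga5*, the α chain of the main fibronectin receptor α5β1. *Itga5* stood at 42.6 and 43.7 CPM in Smad4-off and 45.7 and 68.6 in Smad4-on cells under SB505124, and at 72.9 and 99.1, then 277 and 373, under TGFβ1. Only the 2 Smad4-on libraries under TGFβ1 were above 100 CPM, and the Smad4 difference under TGFβ1 was 1.92 ± 0.131 on the log2 scale (adjusted p = 0.00122; 0.0671 without the line). Its interaction was called, at 1.54 ± 0.183 (adjusted p = 0.0461), but not without the line (adjusted p = 0.954) or without any 1 of 7 of the 8 libraries (adjusted p from 0.0735 to 0.206), the exception being the B87 Smad4-off SB505124 library (adjusted p = 0.0226).

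With TGFβ1 in Smad4-on cells *Itgb6*, which pairs with αv to activate latent TGFβ, rose by 2.56 ± 0.498 on the log2 scale (adjusted p = 0.00863). *Itgb3*, the β chain of the vitronectin and osteopontin receptor αvβ3, rose by 2.15 ± 0.379 (adjusted p = 0.00582), and *Itgav*, the αv chain shared by several of these receptors, rose by 1.53 ± 0.132 (adjusted p = 0.000345). The *Itgb6* call was lost without the B73 Smad4-on SB505124 library (2.50, adjusted p = 0.0681), without the B73 Smad4-on TGFβ1 library (1.64, adjusted p = 0.0544) and without the line (2.73, adjusted p = 0.0796). Between Smad4 states under TGFβ1 these 3 genes were at 1.38, 0.94 and 0.52, with adjusted p = 0.135, 0.172 and 0.0609.

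**Figure D4:**
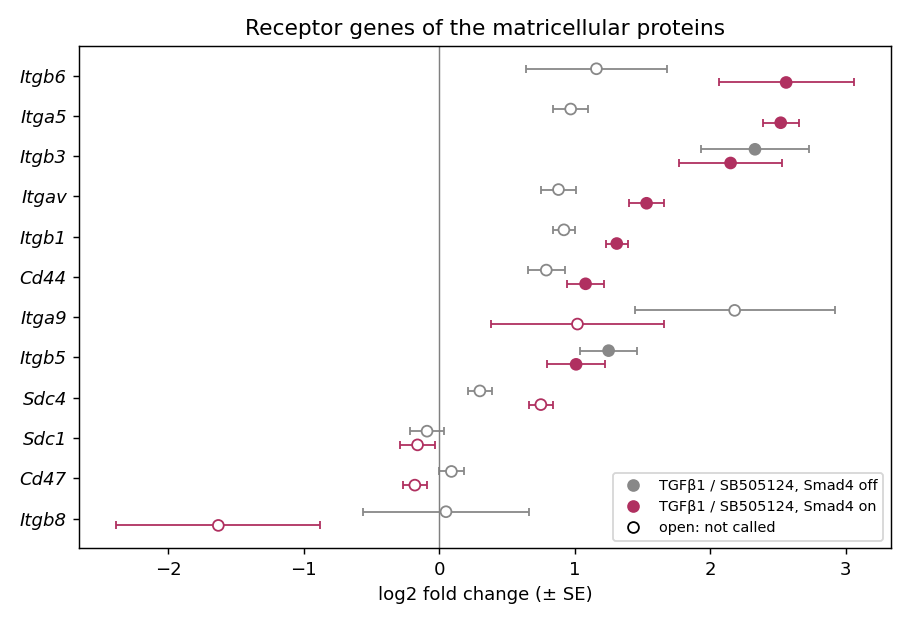
Log2 fold changes with TGFβ1 against SB505124 for the 12 tested receptor genes, in Smad4-off (grey) and Smad4-on (red) cells. Bars are standard errors and filled points were called. In Smad4-on cells 7 genes are called higher, *Itga5* and *Itgb6* by the most, at 2.52 and 2.56.

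Of 18 structural relatives of the 8 genes (other tenascins, thrombospondins, SPARC-like and osteopontin-like genes), 6 were tested, and 11 or 12 per group were at or below the floor. Under TGFβ1, 1 was called higher and 1 lower with Smad4 on, where 1.31% and 1.8% of all genes were called. The one higher was *Smoc2*, a calcium-binding SPARC relative singled out after its values were seen, at 0.129 and 0.0498 CPM with Smad4 off and 6.58 and 1.02 with Smad4 on. It had at most 3 counts in the other 6 libraries and passed the filter only through the group where it was high, so its call is a description. *Thbs3*, a thrombospondin of the pentameric subgroup, was the one lower, at 9.81 and 6.92 CPM with Smad4 off and 2.09 and 1.43 with Smad4 on (-2.26 ± 0.246, adjusted p = 0.0047; 0.18 without the line). In this comparison *Thbs3* and *Thbs1* thus went opposite ways in both lines. *Tnxb*, a tenascin of loose connective tissue, fell with TGFβ1 in both Smad4 states, with log2 changes of -5.34 ± 0.456 (adjusted p = 0.000335) and -3.35 ± 0.426 (adjusted p = 0.00442) for Smad4 on and off. Its levels lay between 3.99 and 16.3 CPM under SB505124 and between 0.255 and 0.797 under TGFβ1, a direction opposite to that of *Tnc*. *Fstl1*, a SPARC-family glycoprotein that binds TGFβ-family ligands, rose in both states, by 1.42 ± 0.0959 (adjusted p = 0.000162) and 1.09 ± 0.095 (adjusted p = 0.00126), though it was not called in Smad4-on cells without the line (adjusted p = 0.291).

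A short list of 6 general TGFβ1 response genes was read beside them. Of the 6, 5 were called higher with TGFβ1 in Smad4-on cells and 5 in Smad4-off cells, where 5.62% and 3.11% of all genes were called higher. The list medians were 2.50 and 1.83, against -0.019 and -0.017 for all genes. *Bambi* was the one not called, at -0.39 and 0.22. *Smad7*, the inhibitory SMAD of the pathway, was called between Smad4 states under TGFβ1 at 1.14 ± 0.109 (adjusted p = 0.00317). The Smad4 difference was 0.56 ± 0.0824 for *Skil* (adjusted p = 0.0121, under 2-fold), 0.44 ± 0.225 for *Pmepa1* (adjusted p = 0.293) and 1.73 ± 0.488 for *Ltbp2* (adjusted p = 0.0853). *Tnc*, at 2.32, was above all 4 of these.

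The genes with the most similar profiles over the 8 libraries were taken from 11100 genes by the root mean square distance of mean-centred log2 CPM. For *Fn1*, whose own spread around its mean was 1.13, they were *Marcksl1* (distance 0.23) and *Rhob* (0.27). For *Thbs1*, with a spread of 2.02, they were *Adamts6*, a matrix metalloprotease of the ADAMTS family, and *Ptgs2*, the inducible cyclooxygenase COX-2 (0.34 each). For *Tnc*, with a spread of 2.27, they were *Inhba*, the activin A subunit (0.42), and *Wisp1*, a matricellular gene of the CCN family (0.45). *Sparc* was closest to *Lrp1*, an endocytic receptor (0.27), and *Plcd1* (0.30), at a spread of 0.89. The nearest gene to *Spp1* was farther off, *Sprr1a*, a cornified envelope gene (0.63), at a spread of 1.24. Those of *Tgfbi* were *Gpnmb* (0.64) and *Tgfbr3*, the TGFβ co-receptor betaglycan (0.69), at a spread of 1.76. The distances describe these 8 libraries only, which share 2 lines.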

How the data were processed

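RNA-seq was analysed in 8 libraries. Per the labels, the authors prepared stranded poly(A) libraries and sequenced single-end reads. The submitters' processing notes name FastQC 0.11.5, Trimmomatic 0.36, STAR 2.5.3a, featureCounts 1.6.3 and GRCm38 (mm10). The deposited values are raw counts per gene, with no pooling, and the strand setting of the counting is not given in the sources used here. Exons of *Fn1*, *Tnc* and *Thbs1* overlap antisense genes, which had at most 9 counts in any library.

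Counts were tested in R 4.3.3 with edgeR 4.0.16 (TMM, filterByExpr, quasi-likelihood F-test, 14301 genes) in 1 model with the 4 groups and the line. A gene was called at a Benjamini-Hochberg adjusted p under 0.05 over all tested genes and over 2-fold. The study used DESeq2 and names no covariate. DESeq2 1.42.0 was an alternative, as were other filters and size factors, models without the line, single lines and leaving out libraries. The fit was tested on simulated data.

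Each title names a line and both lines passed through all 4 conditions, so the line is the replicate block. Differences between the lines correlated across groups at 0.642 to 0.774. With 1 library per line and condition and the line in the model, p-values measure how unevenly the 2 lines respond to the conditions. The constant difference between the lines is taken out, and the estimate of spread draws on all tested genes. Counting floors cover counting error only.

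SE is the size of the log2 fold change over the square root of F. CPM per kilobase uses the transcript length in the table. Listed genes are named by a rule (at most 4 per list, mean log2 CPM of at least 1, called between Smad4 states under TGFβ1, then called for TGFβ1 in Smad4-on cells, by size). *Krt18*, *Epcam*, *Col1a1* and the other cell type markers named were picked after their values were seen. The 8 genes and all lists were chosen with earlier results of these data known. Promoter sequences are from RefSeq, GRCm38.p6. Some items are not reported here.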

Additional observations from a re-analysis of the deposited data

Results flagged for a closer look

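The Smad4 effect on *Tgfbi* differed between the lines by the test of the difference itself, with a log2 difference of 4.22 ± 0.462 (B87 minus B73, adjusted p = 0.0329, edgeR). Each line is 1 library per condition, and the gene had between 1 and 183 counts. The call was lost without the B73 or the B87 Smad4-on SB505124 library, at a difference of 4.50 in each case. The filter of at least 10 counts in every library drops the gene.

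The Smad4 effect on *Itga5* differed between TGFβ1 and SB505124, with an interaction of 1.54 ± 0.183 on the log2 scale (adjusted p = 0.0461, edgeR), larger under TGFβ1. It fell below the threshold when any of 7 of the 8 libraries was left out (adjusted p from 0.0735 to 0.206) and passed without the B87 Smad4-off SB505124 library (1.76, adjusted p = 0.0226).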

How the results depend on the processing

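With 1 library per line and condition, calls rest on 2 lines and a shared estimate of spread, and 3 counts (0.125 to 0.162 CPM) limit what can be seen of *Postn*, *Thbs2* and *Tgfbi*. With no replicate block in edgeR, 0 of the tested members were called for Smad4 under TGFβ1, 2 for TGFβ1 with Smad4 on and 1 with Smad4 off, with 36, 1035 and 168 genes called in all, 2 for Smad4 under SB505124 and 0 for the interaction. The same without the block in DESeq2 gave 268 genes for Smad4 under TGFβ1, 97 under SB505124 and 484 for TGFβ1 in Smad4-off cells, with 1 member called for Smad4 under SB505124, and *Sparc* there turned to 0.06 in both tools. DESeq2 with the line called 1 member for Smad4 under SB505124, 1 for the interaction and 135 genes for the interaction, and put *Tgfbi* between the lines at 0.10. With no filter on low counts 783 and 403 genes were called for Smad4 under TGFβ1 and SB505124 and 284 for the interaction, and 1, 3, 2 and 1 members for Smad4 under SB505124, the interaction and the line differences in the Smad4 and TGFβ1 effects. That fit took its estimate of spread from all 27770 genes with any count, and its lower adjusted p values were not read as added support. At least 10 counts in every library, which drops *Tgfbi*, gave 297, 77, 1293 and 519 genes for the 4 comparisons in that order (Smad4 under TGFβ1 and SB505124, TGFβ1 with Smad4 on and off), 488 between the lines, and 0 members for the line difference in the Smad4 effect. Without the fold rule the counts were 973, 4751 and 1888 for Smad4 under TGFβ1 and TGFβ1 with Smad4 on and off, and 2660 between the lines. With the compared libraries alone 73 genes were called for Smad4 under SB505124, and *Sparc* under TGFβ1 turned to -0.06. Where no construction of the alternative shows it, the cause was not tested.

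Leaving out 1 library at a time gave 156 to 453 genes for Smad4 under TGFβ1, 46 to 161 under SB505124, 377 to 879 for TGFβ1 in Smad4-off cells and 0 to 14 for the interaction. Members called ran from 0 to 1 for Smad4 under SB505124, 2 to 4 for TGFβ1 in Smad4-off cells, 1 to 2 between the lines and 1 to 2 for the line difference in the Smad4 effect. Log2 values that changed sign were *Sparc* for Smad4 under TGFβ1 (-0.91 to 0.77) and SB505124 (-0.60 to 0.48), TGFβ1 in Smad4-on cells (-0.14 to 1.53) and the interaction (-0.84 to 0.83). *Fn1* ran from -0.24 to 1.02 for Smad4 under SB505124, -0.38 to 0.88 for the interaction and -0.23 to 0.21 between the lines. *Thbs1* ran from -0.17 to 1.00 for Smad4 under SB505124 and -0.28 to 0.29 between the lines, and *Spp1* from -0.88 to 0.02 for TGFβ1 in Smad4-on cells. *Tgfbi* ran from -1.47 to 2.24 for Smad4 under SB505124, -3.48 to 0.08 for TGFβ1 in Smad4-off cells and -1.34 to 0.79 between the lines. The alternatives for the line differences and for the listed genes were chosen after seeing the data.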
